A study of Bos taurus with 3 samples.

Results

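MiR-375, miR-205 and miR-203 are 3 microRNAs (miRNAs) known from epithelia, and they were read in the small RNA of bovine milk-derived extracellular vesicles (BM-EVs). They were chosen by name, as bta-miR-375, bta-miR-205 and bta-miR-203, out of the 745 miRNAs listed in at least 1 library. Of the 3 names, 2 were listed, bta-miR-375 and bta-miR-205, and both were listed in each of the 3 libraries. Bta-miR-203 was listed in none of them. The BM-EVs came from pasteurized skimmed cow milk from a shop, whose casein was removed with acid before the vesicles were salted out with ammonium sulfate, and the labels give the milk as normal and untreated. All 3 libraries belonged to this 1 group, so no treatment, genotype or control could be compared. In the study, replicates of the isolation differed in the expiration date of the milk, but the labels do not say which milk stands behind which library.

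A miRNA is a short RNA that guides Argonaute proteins to messenger RNAs with a matching site, mostly through the bases of its seed near the 5′ end, and so lowers the output of those messages. MiR-205 is known from basal cells of stratified and glandular epithelium, in the mouse mammary gland from its basal and progenitor cells, and together with the miR-200 family it represses ZEB1 and ZEB2, transcription factors that drive epithelial cells to a mesenchymal state. MiR-203 is known from mouse skin, where it restrains p63 as keratinocytes leave the basal layer and differentiate. MiR-375 is best known from mouse pancreatic islets, where it limits insulin release through myotrophin, and it is also found in other secretory epithelia. In the mammary gland the luminal cells make the milk and line the lumen, and the basal cells lie underneath them.

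Each UMI (unique molecular index) marked 1 RNA molecule before amplification, so a UMI count is a count of molecules and not of PCR copies. The miRNA tables held 77225, 373239 and 102058 UMIs in libraries 1, 2 and 3, and the lowest count listed anywhere was 11. A name that is not listed therefore had at most 10 UMIs and is not known to be absent. A level below is the share of a library's summed miRNA UMIs. Each share has a Wilson 95% confidence interval, which covers counting error only. Counts were not scaled by length, and whether each UMI came from a whole mature molecule was not examined. Adapters join some sequences better than others, and this was not measured here.

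MiR-375 was the most abundant of the 3 miRNAs and had nearly the same share in each library. It was counted with 160 UMIs in library 1, with 820 in library 2 and with 213 in library 3. Its share was 0.207% in library 1 (interval 0.177 to 0.242%), 0.220% in library 2 (0.205 to 0.235%) and 0.209% in library 3 (0.183 to 0.239%), and these intervals overlapped in every pair of libraries. The mean share was 0.212% ± 0.00683 (SD, n = 3 libraries). MiR-375 stood 44th of 507 listed miRNAs in library 1, 40th of 622 in library 2 and 43rd of 628 in library 3.

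MiR-205 was listed close to the lowest count in libraries 1 and 3 and higher up in library 2. It was counted with 16 UMIs in library 1, with 50 in library 2 and with 15 in library 3. Its share was 0.0207% in library 1 (interval 0.0128 to 0.0337%), 0.0134% in library 2 (0.0102 to 0.0177%) and 0.0147% in library 3 (0.00891 to 0.0243%). The highest share thus belonged to the library with the fewest miRNA UMIs, but the intervals of all 3 libraries overlapped. The mean share was 0.0163% ± 0.00391 (SD, n = 3). Of the listed miRNAs, 27.0% had fewer UMIs than miR-205 in library 1, 62.2% in library 2 and 20.4% in library 3.

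MiR-203 was bounded only from above. At most 10 UMIs allow a share of up to 0.0129% in library 1, 0.00268% in library 2 and 0.00980% in library 3, so library 2, with the most UMIs, set the tightest limit. MiR-375 was at least 16-fold higher than miR-203 in library 1, at least 82-fold in library 2 and at least 21.3-fold in library 3, each against that limit of 10 UMIs. For miR-205 the same bounds were 1.6-fold, 5-fold and 1.5-fold. The limit for miR-203 lay inside the interval of miR-205 in libraries 1 and 3 and below it in library 2, so the order of miR-205 and miR-203 was resolved beyond counting error only in library 2.

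**Figure D1:**
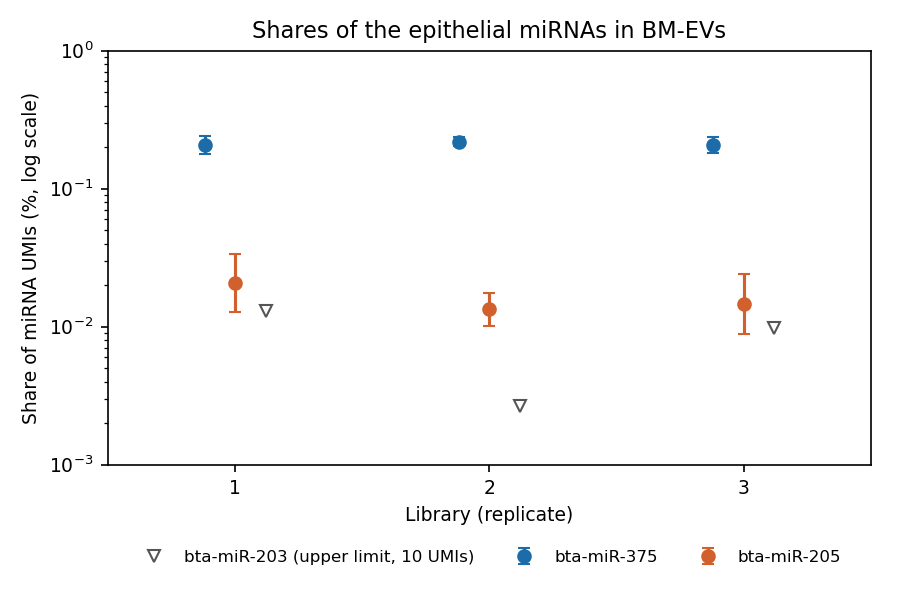
Share of the miRNA UMIs (%, log scale) held by miR-375, miR-205 and miR-203 in libraries 1 to 3. Points are shares with Wilson 95% intervals and open triangles are the upper limits for the unlisted miR-203. MiR-375 sits between 0.207% and 0.220%, above every value of miR-205.

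The secretory miRNA stood above the basal one in every library. MiR-375 had 10 times the UMIs of miR-205 in library 1 (exact 95% interval 5.97 to 17.9), 16.4 times in library 2 (12.3 to 22.3) and 14.2 times in library 3 (8.42 to 25.8). The mean ratio was 13.5 ± 3.25 (SD, n = 3), and the 3 intervals overlapped, so no difference in the ratio between libraries was detectable at this depth. An exact two-sided sign permutation test of the ratio gave p = 0.25, the smallest p that 3 libraries allow, with miR-375 higher in 3 of 3. This ratio is taken within a library and does not depend on any scaling between libraries.

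**Figure D2:**
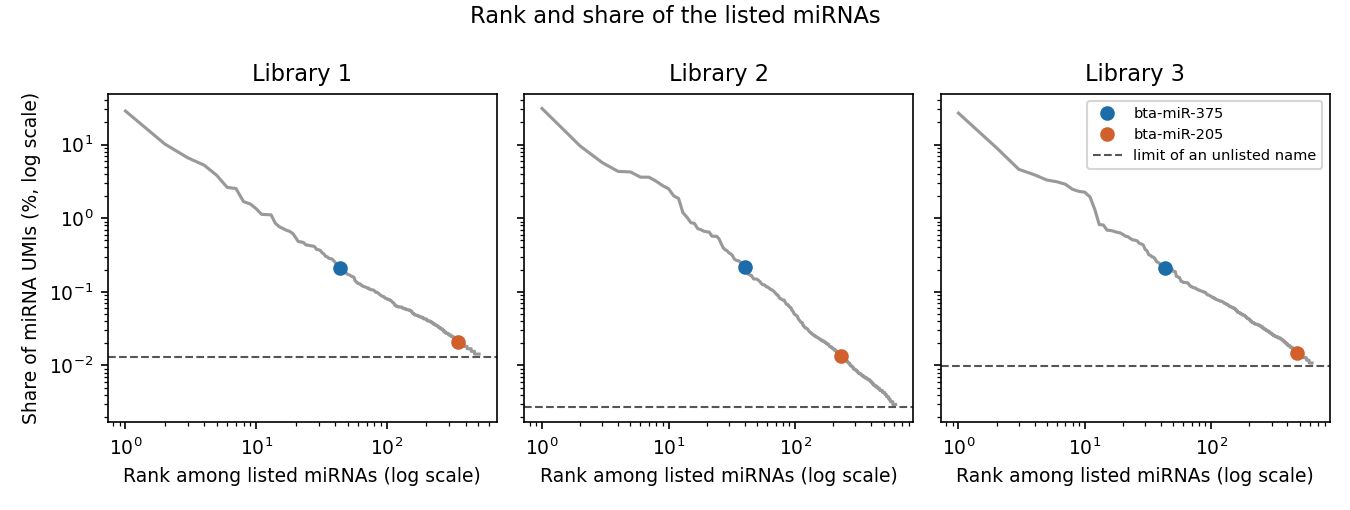
Share of the miRNA UMIs (%, log scale) against rank (log scale) for all listed miRNAs of each library, in grey, with miR-375 and miR-205 as points and the limit of an unlisted name as a dashed line. MiR-375 stands at rank 40 to 44, while miR-205 lies near the dashed line in libraries 1 and 3.

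As a share of miRNA UMIs, miR-375 varied less between libraries than most other abundant miRNAs, but not on other scales. Its coefficient of variation over the 3 libraries was 3.22%, against 6.32% from counting error alone at its mean share. Among the 58 miRNAs that reached 100 UMIs in each library, the median coefficient was 24.96% and the range 2.42% to 82.5%, and miR-375 had the third lowest, after miR-141 and let-7f. Since its spread lay under the counting error, its place among the steadiest miRNAs is not resolved. Over the same 58 miRNAs, its coefficient was 43.8% against a median of 43.6% as a share of miRNA and Rfam UMIs, 58.0% against 55.6% with TMM scaling in edgeR and 58.0% against 55.5% with DESeq2 size factors, a comparison added after seeing the data. MiR-375 thus stood in the middle of these miRNAs on each of the other 3 scales. MiR-205 had a coefficient of 24.0%, against 22.8% from counting alone and a median of 50.8% over the 435 miRNAs listed in every library.

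Fisher's exact test (two-sided) was then run on every miRNA listed in both libraries of a pair, with Benjamini-Hochberg adjustment over all of them, to see whether either share moved by more than counting error. It compares libraries and not conditions, and the 3 pairs share libraries. Between libraries 1 and 2, 82.6% of 466 miRNAs passed at an adjusted p under 0.05, and neither miR-375 nor miR-205 did. The fold in library 2 over library 1 was 1.06 for miR-375 (exact 95% interval 0.894 to 1.26, adjusted p = 0.559 by Fisher's exact test) and 0.647 for miR-205 (0.362 to 1.22, adjusted p = 0.157). Between libraries 1 and 3, 25.9% of 460 miRNAs passed, and again neither member did. The fold in library 3 over library 1 was 1.01 for miR-375 (0.817 to 1.24) and 0.709 for miR-205 (0.327 to 1.53). Between libraries 2 and 3, 75.8% of 521 miRNAs passed, and neither member did. The fold in library 3 over library 2 was 0.950 for miR-375 (0.813 to 1.11) and 1.10 for miR-205 (0.572 to 1.99). Before adjustment, the lowest p of the 6 tests on the members was 0.140, for miR-205 between libraries 1 and 2, so 0 of 6 passed at an unadjusted p under 0.05. The intervals of miR-205 leave room for a change of more than 1.5-fold in each pair.

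Whether miR-375 held a steady level depended on what it was measured against. The share of the median listed miRNA fell in library 2, with a log2 fold of -1.42 over the 466 miRNAs shared with library 1. Listing needed at least 11 UMIs, a share of 0.0142% in library 1 and of 0.00295% in library 2. Rare miRNAs thus entered only if their share was high enough in library 1, which can pull this median down. Among miRNAs with at least 30 UMIs in both libraries it was -0.85. The TMM and DESeq2 factors came from miRNAs listed in every library and so share this selection. A scaling that sets the median of the listed miRNAs near 0 lifts every miRNA of library 2. With TMM scaling in edgeR, which left a median of -0.15, the log2 fold of miR-375 in library 2 over library 1 was 1.36 (adjusted p = 4.73e-32, exact binomial test), and with DESeq2 size factors it was 1.43. The Rfam tables held 1013392, 1937450 and 863833 UMIs in libraries 1, 2 and 3. Taking them into the denominator shifts every miRNA of a pair by the same log2 amount. In library 2 over library 1 the median log2 fold moved to -0.23. The fold and p of miR-375 on this scale include that common shift. As a share of miRNA and Rfam UMIs together, miR-375 held 0.0147%, 0.0355% and 0.0221% in libraries 1, 2 and 3, a log2 fold of 1.27 in library 2 over library 1 (adjusted p = 5.13e-28, Fisher's exact test). Library 2 was thus the highest on each of these 3 scales, while on the share of miRNA UMIs the libraries did not separate. MiR-205, unlike miR-375, turned direction with the scale. Its log2 fold in library 2 over library 1 was -0.63 on the share of miRNA UMIs and 0.64 with TMM scaling, and neither passed (adjusted p = 0.157 by Fisher's exact test and 0.236 by the exact binomial test). In library 3 over library 2 it was 0.13 on the share and -1.09 with TMM scaling, which passed (adjusted p = 0.0183, exact binomial test).

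**Figure D3:**
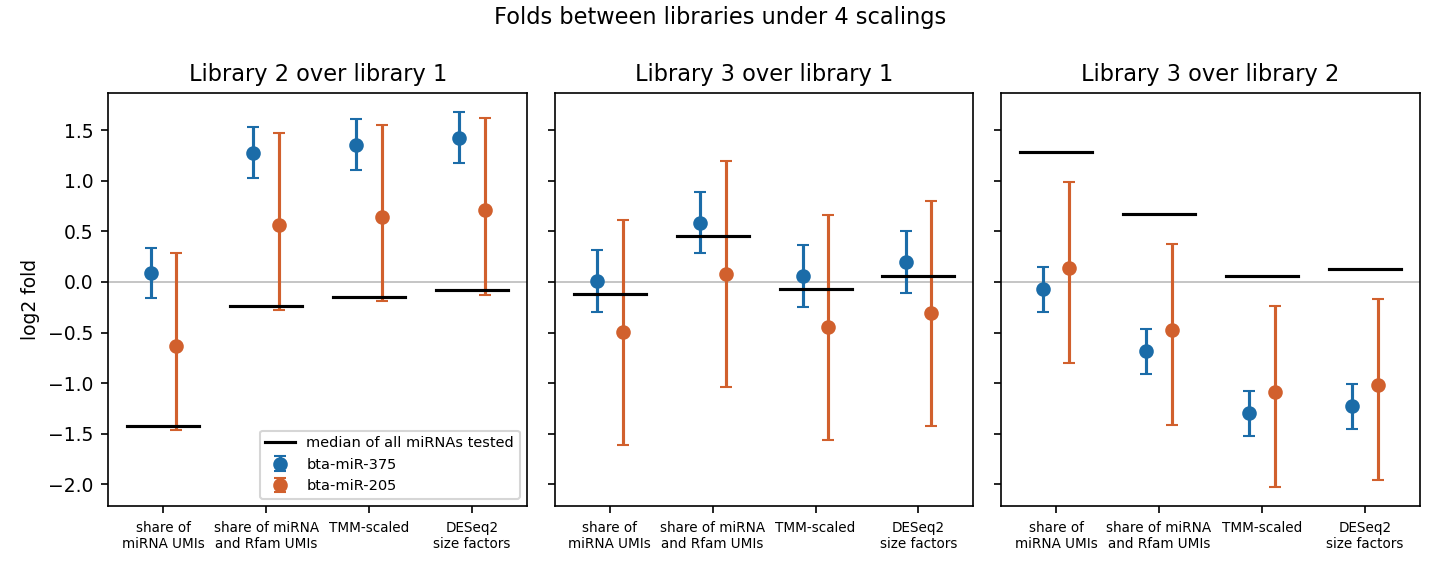
Log2 fold of miR-375 and miR-205 between each pair of libraries under 4 scalings, with exact 95% intervals that cover counting error only. Black lines are the median of all miRNAs tested. In library 2 over library 1 the fold of miR-375 lies near 0 on the share of miRNA UMIs and between 1.27 and 1.43 on the other scales.

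The order of the folds among a given set of miRNAs does not depend on scaling, but it depends on which miRNAs are counted. In library 2 over library 1, 85.8% of the 466 miRNAs had a lower fold than miR-375 and 74.2% a lower fold than miR-205. In library 3 over library 2, 11.7% of 521 had a lower fold than miR-375 and 16.3% than miR-205. Both members thus lay toward the high end in library 2 relative to the other listed miRNAs. Among the miRNAs that reached 30 UMIs in both libraries, which miR-205 did not, 73.5% had a lower fold than miR-375 in library 2 over library 1 and 23.1% in library 3 over library 2. In library 3 over library 1, 57.2% of 460 had a lower fold than miR-375 and 26.1% than miR-205. The direction of all calls moved with the scale as well. Of the calls in library 2 over library 1, 11.4% were higher on the share of miRNA UMIs, 57.2% with TMM, 62.8% with DESeq2 size factors and 50.2% with Rfam UMIs in the denominator. In library 3 over library 2 these were 90.1%, 43.6%, 46.3% and 69.5%, and in library 3 over library 1 they were 50.4%, 58.2%, 74.6% and 92.3%. Among miRNAs that reached 30 UMIs in both libraries, the share of higher calls was 24.4% in library 2 over library 1 and 77.6% in library 3 over library 2.

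The miR-200 family and the miR-183 cluster, other miRNAs known from epithelia, served as the point of reference for the members. This list of 8 held 4.47%, 6.62% and 5.20% of the miRNA UMIs in libraries 1, 2 and 3, and 7 of the 8 were listed in every library. MiR-200c led with 3.33% ± 0.911 (SD, n = 3), followed by miR-141 with 0.840% ± 0.0203, miR-200a with 0.593% ± 0.0974, miR-200b with 0.261% ± 0.0625 and miR-182 with 0.220% ± 0.0484. MiR-375 came next. It did not differ from miR-182 or miR-200b beyond the spread over libraries, since each of them was higher in 2 of 3 libraries and the ranges overlapped. Within library 2 they were apart beyond counting error, as miR-375 had 0.817 times the UMIs of miR-182 (exact 95% interval 0.744 to 0.897) and 0.671 times those of miR-200b (0.613 to 0.734). In library 1 both intervals held 1, and in library 3 only that of miR-182 did, with miR-375 at 0.829 times miR-200b (0.688 to 0.998). It stood above miR-183, at 0.109% ± 0.0210, and miR-429, at 0.0713% ± 0.0117, in 3 of 3 libraries without overlap. MiR-205 stood below all 7 of these miRNAs in every library.

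MiR-96, the remaining member of the miR-183 cluster, was listed with 27 UMIs in library 1 only. It lay above miR-205 there. In libraries 2 and 3 it had at most 10 UMIs and lay below the 50 and 15 UMIs of miR-205.

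**Figure D4:**
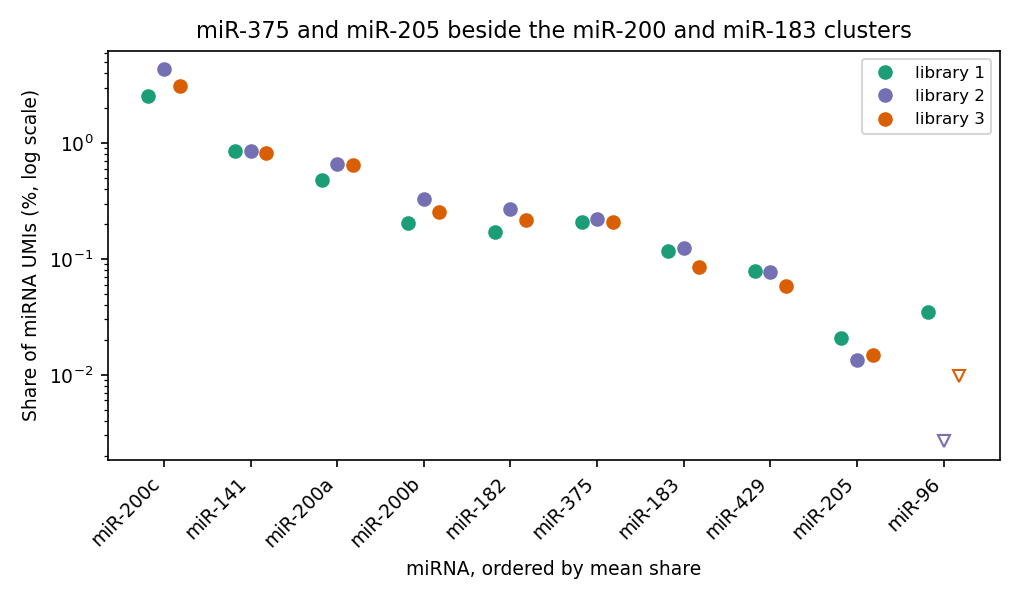
Share of the miRNA UMIs (%, log scale) of miR-375, miR-205 and the 8 miRNAs of the miR-200 and miR-183 clusters in libraries 1 to 3, ordered by mean share. Open triangles are upper limits of an unlisted name. MiR-375 overlaps miR-182 and miR-200b, and miR-205 lies below the other miRNAs except miR-96.

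The ratio of miR-375 to miR-141 was equal in the libraries within counting error and its ratio to miR-200c was not. MiR-141 and miR-200c are known to come from the same primary transcript in mammals. MiR-375 had 24.2% of the UMIs of miR-141 in library 1 (exact 95% interval 20.3 to 28.9%), 25.9% in library 2 (23.9 to 27.9%) and 25.5% in library 3 (21.9 to 29.7%), and all 3 intervals overlapped. The shares of miR-141 and miR-375 had coefficients of variation of only 2.42% and 3.22%, so this steady ratio follows from shares already given. Against miR-200a, miR-375 had 43.1%, 33.5% and 32.5% in libraries 1, 2 and 3, with overlapping intervals. Against miR-200c, miR-375 had 8.19% in library 1 (6.93 to 9.62%), 5.09% in library 2 (4.74 to 5.46%) and 6.68% in library 3 (5.78 to 7.67%). The interval of library 2 lay below those of libraries 1 and 3. The share of miR-200c was 2.53%, 4.32% and 3.13% in libraries 1, 2 and 3, and its fold in library 2 over library 1 was 1.71 (interval 1.63 to 1.79, adjusted p = 4.85e-129 by Fisher's exact test). Of the 7 epithelial miRNAs listed in both libraries, 4 rose in library 2 over library 1 (miR-200a, miR-200b, miR-200c and miR-182), 0 fell and 3 did not pass, with a median fold of 1.36 against 0.373 over all miRNAs tested, of which 9.44% rose and 73.2% fell. In library 3 over library 2, 4 fell, 0 rose and 3 did not pass, with a median fold of 0.769 against 2.44 over all, of which 7.49% fell and 68.3% rose. In library 3 over library 1, 2 rose, 0 fell and 5 did not pass, with a median fold of 1.24 against 0.919 over all, of which 13.0% rose and 12.8% fell. Many of the miRNAs tested had low counts. Among those that reached 30 UMIs in both libraries, as all 7 did, 42 of 204 rose and 130 fell in library 2 over library 1. In library 3 over library 2, 38 of 225 fell and 132 rose. The median log2 folds were then -0.85 and 0.70, closer to those of the 7 than without this minimum. With TMM scaling, added like the next 2 scales after seeing the data, all 7 rose in library 2 over library 1, as did 119 of all 466. With TMM all 7 also fell in library 3 over library 2, as did 136 of all 521. In library 3 over library 1, 2 rose with TMM, against 64 of all 460. There DESeq2 size factors gave 4, against 88 of 460, and the share of miRNA and Rfam UMIs gave 5, against 155 of 460. Against miR-200c, miR-205 had 0.819% (0.467 to 1.33%) in library 1, 0.310% (0.230 to 0.409%) in library 2 and 0.470% (0.263 to 0.776%) in library 3. The intervals of libraries 1 and 2 did not overlap.

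The count of miR-205 was close to those of miRNAs that mark tissues outside the mammary gland, above all of them in libraries 1 and 2 and among them in library 3. Lists for muscle, liver, nerve and exocrine pancreas held 15 miRNAs, of which 6, 7 and 7 were listed in libraries 1, 2 and 3. In library 1 miR-205 had 16 UMIs and the highest of them, the pancreatic miR-216a, had 15, a ratio of 1.07 (exact 95% interval 0.494 to 2.32). In library 2 miR-205 had 50 UMIs and the heart muscle miR-208b had 32, a ratio of 1.56 (0.983 to 2.52). In library 3 miR-205 had 15 UMIs and miR-208b had 27, a ratio of 0.556 (0.275 to 1.08), and 4 of the 7 listed had at least as many UMIs as miR-205. The liver miR-122 had 18 and 20 UMIs in libraries 2 and 3 and was not listed in library 1. The neural miR-124a and miR-124b had 11 UMIs each, in library 1 only, and the neural miR-9-5p had 24 UMIs, in library 2 only. The interval of the ratio held 1 in each library, so miR-205 was not distinguishable at this depth from the highest miRNA of these tissues in any library. No blank library was analysed here, and the source of these low counts was not tested. MiR-375 had more UMIs than every listed member of these 4 lists in each library, with at least 160 UMIs against at most 32.

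**Figure D5:**
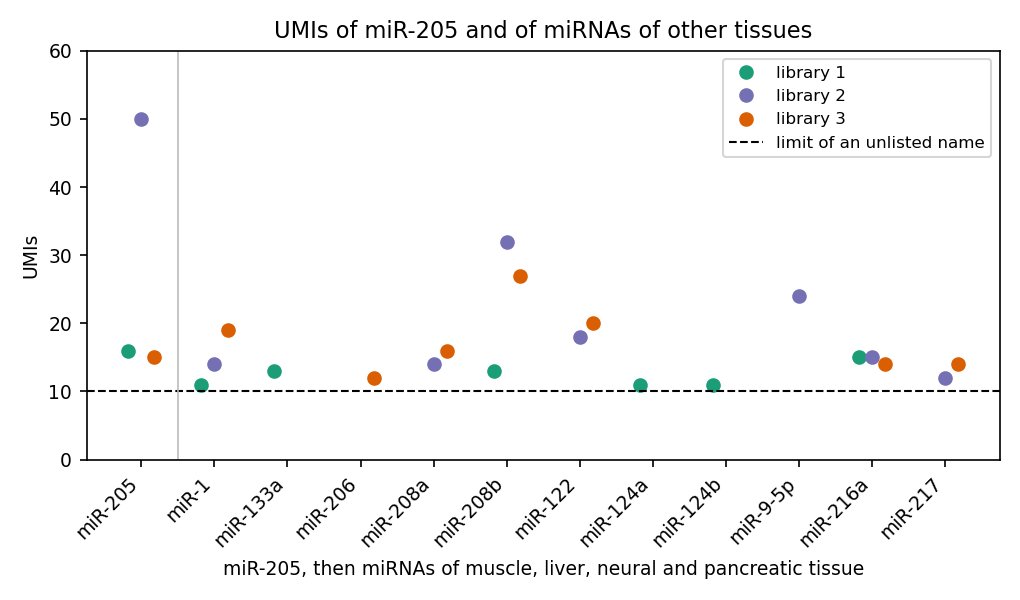
UMIs of miR-205 and of the listed miRNAs of muscle, liver, neural and pancreatic tissue in libraries 1 to 3, with the limit of 10 UMIs of an unlisted name as a dashed line. In library 3, miR-208b with 27 UMIs lies above miR-205 with 15.

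In the lists for other cell types, the neuroendocrine miR-7, which is found with miR-375 in pancreatic islets, had 18, 103 and 32 UMIs in libraries 1, 2 and 3. It lay above miR-205 and below miR-375 in each of them. The other name of the neuroendocrine list, miR-153, was not listed in any library. The leukocyte list held 0.236%, 0.180% and 0.321% of the miRNA UMIs with 4, 5 and 5 of its 5 members listed. Its most abundant member, miR-223 of myeloid cells, had 104, 471 and 135 UMIs, below miR-375 in 3 of 3 libraries. The erythroid list was at 0.00991% to 0.0324% with only miR-486 listed, and the stromal list at 0.0311% to 0.0901%, where miR-143 had the highest mean share with 13, 54 and 37 UMIs. The endothelial miR-126-3p and miR-126-5p were not listed in any library. The part of any such cell type in the level of miR-375 or miR-205 was not tested, and in vesicles fewer source cells and less RNA per cell cannot be told apart.

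The miRNAs most like each member were found by the largest absolute log2 ratio of their share to that of the member over the 3 libraries, among 433 miRNAs listed in all of them. For miR-375 these were miR-182 (0.29), miR-3432a (0.29), miR-2898 (0.35) and let-7e (0.43). MiR-182 had 133, 1004 and 223 UMIs in libraries 1, 2 and 3, below miR-375 in library 1 and above it in the other two. MiR-3432a had 196, 989 and 229 and lay above miR-375 in all 3. For miR-205 they were miR-148c (0.19), miR-2885 (0.19), miR-10173-5p (0.26) and miR-2327 (0.29). MiR-148c had 14, 52 and 15 UMIs and miR-2885 had 14, 56 and 15. At 14 to 56 UMIs many miRNAs lie near miR-205 by level alone.

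Of the 3 names, 2 were matched to genes of the RefSeq table for the ARS-UCD2.0 assembly, MIR375 and MIR205. MIR375 lies between CRYBA2, a lens crystallin gene, and CFAP65, a gene for a protein of cilia and flagella. MIR205 lies between CAMK1G, a calcium-dependent kinase gene, and the long non-coding RNA LOC104974529. Neither overlaps another annotated gene, and neither has another annotated miRNA gene within 10 kb. By this annotation both are lone miRNA genes. Coordinates are left out, because the sources used here do not name the build behind the counts.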

How the data were processed

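Small RNA of BM-EVs was sequenced in 3 libraries of 1 group, made with the QIAseq miRNA kit. The authors trimmed and filtered the reads, mapped them to miRBase and then to Rfam, and deposited the UMI counts of each miRNA and of each Rfam sequence as raw, not normalized counts. Bowtie 1.2.2, cutadapt 2.7 and FastQC are named in the submitters' processing notes. For database versions, genome build, mismatches, strand and multiple matches, the settings are not given in the sources used here, so near-identical miRNAs may share UMIs. Libraries were assigned by the replicate number of the sample labels.

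Shares were computed per library, with Wilson intervals, and ratios and folds with exact Clopper-Pearson intervals, all for counting error only. Fisher's exact test was run over all miRNAs listed in both libraries of a pair and was tested on simulated data. Alternatives were a minimum of 30 UMIs, miRNA and Rfam UMIs as denominator, miRNA UMIs without the 20 most abundant miRNAs, TMM totals (edgeR 4.0.16) and DESeq2 1.42.0 size factors from the 435 miRNAs listed in every library (with an exact binomial test), pooled UMIs and leaving out each library. The TMM factors were 1.36, 0.561 and 1.31. Named miRNAs were the 3 members, the 4 most like each listed member, the epithelial list and the highest member of every other list by mean share. Let-7f, miR-30d, miR-191, miR-148d, miR-11976, miR-150 and miR-155 were named after their values were seen. The members and lists were chosen with earlier results of these data known. Shared seeds were not analysed here. Tests used scipy 1.17.1 with numpy 2.4.6 and pandas 2.3.3 (Python 3.11.15), scaling used R 4.3.3, and plots matplotlib 3.10.9.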

Additional observations from a re-analysis of the deposited data

How the results depend on the processing

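No comparison of conditions was possible because there was a single group. The ratio of miR-375 to miR-205 kept its direction in all 4 alternatives (12.1 to 15.3 with 1 library left out), but with 2 libraries the sign test can give no p under 0.5. The mean share of miR-375 was 0.0241% of miRNA and Rfam UMIs, 0.855% without the 20 most abundant miRNAs, 0.234% with TMM and 0.234% with DESeq2 size factors. For miR-205 the first 2 gave 0.00173% and 0.0639%, and for the limit of miR-203 0.000795% and 0.0307%. With the unlisted miR-203 entered as 0 UMIs its share was 0. These denominators change every share by construction. With 1 library left out, which cannot move a mean by 1 SD, the shares were 0.208% to 0.214% for miR-375 and 0.0140% to 0.0177% for miR-205, and the limit of miR-203 0.00624% to 0.0114%. Against 385 calls of 466 tested (82.6%) between libraries 1 and 2, at least 30 UMIs gave 172 of 204 (84.3%, fewer miRNAs tested). Over all 466, TMM gave 208 (44.6%), DESeq2 size factors 199 (42.7%) and the larger denominator 217 (46.6%). Against 119 of 460 (25.9%) between libraries 1 and 3, at least 30 UMIs gave 72 of 194 (37.1%). Over all 460, TMM gave 110, DESeq2 size factors 118 and the larger denominator 168. Against 395 of 521 (75.8%) between libraries 2 and 3, at least 30 UMIs gave 170 of 225 (75.6%). Over all 521, TMM gave 241, DESeq2 size factors 242 and the larger denominator 285. The log2 fold of miR-205 turned in library 2 over library 1 with TMM (0.64), DESeq2 size factors (0.71) and the larger denominator (0.56), in library 3 over library 1 with the larger denominator (0.082), and in library 3 over library 2 with TMM (-1.09), DESeq2 size factors (-1.02) and the larger denominator (-0.48). MiR-375 passed in library 3 over library 2 with each of these scales (-1.30, -1.23 and -0.69), and in library 3 over library 1 with the larger denominator only (0.59). Each change of scale moves all miRNAs of a pair by the same log2 amount, and what lies behind these amounts was not tested. Chosen after seeing the data, the same scales moved the coefficient of variation of miR-375 from 3.22% to 43.8% with Rfam UMIs in the denominator, 58.0% with TMM and 58.0% with DESeq2 size factors. Depth left miR-203 with an upper limit only and miR-205 with 15 and 16 UMIs in libraries 3 and 1.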

Other observations

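Within the leukocyte list, miR-223, known from neutrophils and monocytes, held 0.135%, 0.126% and 0.132% of the miRNA UMIs in libraries 1, 2 and 3. This is a coefficient of variation of 3.34%, the fourth lowest of the 58 miRNAs that reached 100 UMIs in each library, next to that of miR-375. It was taken on the share of miRNA UMIs only. MiR-223 had fewer UMIs than miR-375, for which counting error alone gave 6.32%, so the place of miR-223 is not resolved either. MiR-150, known from mature lymphocytes, held 0.0311%, 0.0107% and 0.0901%, and miR-155, known from activated lymphocytes and macrophages, held 0.0479%, 0.0313% and 0.0686%. Both of these had their lowest share in library 2 and their highest in library 3. Over all miRNAs tested, 73.2% of 466 fell in library 2 over library 1, and 68.3% of 521 rose in library 3 over library 2. Of the same list, miR-223 and miR-142-5p had their highest share in library 1, miR-142-5p with 0.0220%, 0.00670% and 0.0167% in libraries 1, 2 and 3. MiR-142-3p was not listed in library 1. MiR-150 and miR-155 were singled out after their values were seen, and no difference between the members of the list was tested.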
